A study of Mus musculus with 14 samples.

Results

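The 8 genes described here encode coinhibitory receptors, the surface proteins through which a T cell receives restraining signals: Ctla4, Lag3, Tigit, Pdcd1 (PD-1), Havcr2 (TIM-3), Btla, Cd160 and Cd96. They were taken by gene symbol, and all 8 were found among the 48363 genes with values in the table of this series and passed the filter on low values, as did 16241 genes in all. The RNA-seq data came from mouse regulatory T cells (Tregs), sorted as live CD4+ cells that carry the FOXP3-YFP reporter, from spleen pooled with inguinal, axillary and brachial lymph nodes of untreated mice. The cKO group (5 libraries) came from mice with floxed alleles (fl/fl) of both miR-15/16 loci, miR-15a/16-1 as well as miR-15b/16-2, which are deleted by a Cre recombinase made from the endogenous Foxp3 locus (Foxp3 Cre), so that the miRNAs are lost once a cell turns on Foxp3. The WT group (4 libraries) came from Foxp3 Cre mice with wt/wt alleles at these loci, and the CD25hi (3 libraries) and CD25lo (2 libraries) groups are bins of WT Tregs sorted by surface CD25, the interleukin-2 receptor alpha chain. All groups therefore carry the Foxp3 Cre allele with its YFP reporter, and the age of the mice behind each library is not given in the sources used here. The libraries were labelled as biological replicates, and p-values measure the spread between these samples.

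Several coinhibitory receptors share their ligands with activating receptors, and part of their action lies in this competition. CTLA-4 competes with CD28 for CD80 and CD86, TIGIT and CD96 compete with the activating receptor CD226 for CD155 (Pvr), BTLA and CD160 share the ligand HVEM (Tnfrsf14), PD-1 binds PD-L1 and PD-L2, LAG-3 binds MHC class II as CD4 does, and TIM-3 binds galectin-9 among others. In Tregs several of these receptors are part of the suppressive machinery itself, and activated or effector Tregs are known to carry more of them than resting Tregs.

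The miRNAs deleted in cKO Tregs share their seed, the bases by which a miRNA pairs with its targets, and their mature sequences are shown so that the matches in the receptor transcripts can be read against them. Sequences are from RefSeq (GRCm38.p6), 5′ to 3′, with bases 2 to 8 (the seed) in capitals, and miR-16-5p is made from both loci, on chromosome 14 and on chromosome 3.
miR-15a-5p: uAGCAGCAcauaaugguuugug
miR-15b-5p: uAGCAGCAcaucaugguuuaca
miR-16-5p: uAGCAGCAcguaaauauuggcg

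On the sense strand, the longest 3′ UTR annotated for each gene by GENCODE on GRCm38 was searched for 7 bases that pair with the seed, TGCTGCT, for the overlapping form with a final A, GCTGCTA, and for the 8-base TGCTGCTA that contains both. Of the 8 receptor genes, Btla alone held a match, a single TGCTGCT, and the other 7 held none. Such a match was found in 27.8% of the 12725 tested genes with an annotated 3′ UTR. The UTRs of Lag3 (81 bases), Tigit (134 bases) and Cd96 (216 bases) are short beside a median of 1139 bases over all those genes. Those of Pdcd1 (1000 bases) and Ctla4 (1115 bases) are just below the median, and those of Havcr2 (1809 bases), Cd160 (1840 bases) and Btla (2295 bases) are above it. The match in Btla begins at base 750 of the UTR, at chr16:45251332-45251359 on the plus strand for the stretch shown, in 1 of its 2 annotated coding transcripts. Among the genes of the receptor pathways that were called in cKO Tregs, Cd28, Icos, Ppp2r1a and Pecam1 also held a match, at chr1:60772042-60772069 (plus strand), chr1:60998876-60998903 (plus), chr17:20965750-20965777 (plus) and chr11:106654676-106654703 (minus), and Ptpn22, Bcl6 and Cd101 held none. Capitals mark the matching bases, and a match is a description of the letters and not a site of binding.
Btla: atgaatgtgattcaaTGCTGCTggatta
Cd28: aaaactatgtcactTGCTGCTAttattg
Icos: atgcctgggacaagcTGCTGCTttggtc
Ppp2r1a: taggtcactggctttTGCTGCTgtaatg
Pecam1: tttggaaatacacagTGCTGCTcaggtt

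All values below are normalized counts, reads per gene divided by a size factor for the depth of the library. The libraries held 30055573 to 35226685 reads in genes. All 11 Treg markers were detected in each group, with Foxp3 at 15422 to 22851 normalized counts as group means. Ebf1, a defining factor of B cells, stayed under 10 normalized counts in every library, as did Klre1 and Klra8 of NK cells and Flt3 of dendritic cells. Other markers of these cells were detected, among them Cd79b (623 ± 135 in cKO) and Cd22 (435 ± 45.7 in cKO) of B cells. Nkg7 of NK cells (609 ± 206 in cKO) and Csf1r of myeloid cells (1904 ± 1135 in WT) were detected too. The myeloid and dendritic cell markers summed to 1929 to 8350 normalized counts over the libraries. By Xist, which is made from the inactive X chromosome of females, the 5 cKO libraries and WT replicate 3 were female, and the other 3 WT and all 5 CD25-sorted libraries were male. WT replicate 4 stood apart from the other WT libraries in 22 immediate early and stress genes, transcripts that rise within minutes of stimulation or handling: their log2 levels averaged 12.10, with 13.66 to 13.93 in WT replicates 1 to 3, 12.54 to 13.86 in cKO and 11.92 to 12.49 in the CD25-sorted libraries.

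To compare levels between genes, normalized counts were divided by exon length. In WT Tregs, Ctla4 led with 12455 ± 4557 normalized counts per kb of exon (SD, n = 4), followed by Cd96 (3506 ± 298), Tigit (2637 ± 619), Btla (1482 ± 138), Pdcd1 (1213 ± 306) and Lag3 (646 ± 105). Cd160 (168 ± 16.8) and Havcr2 (29.5 ± 17.4) were the least abundant. Neighbours in this order did not overlap between WT libraries, apart from Cd96 with Tigit and Btla with Pdcd1. The 8 receptors thus spanned a wide range, from 12455 per kb for Ctla4 to 29.5 per kb for Havcr2 as WT means.

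**Figure D1:**
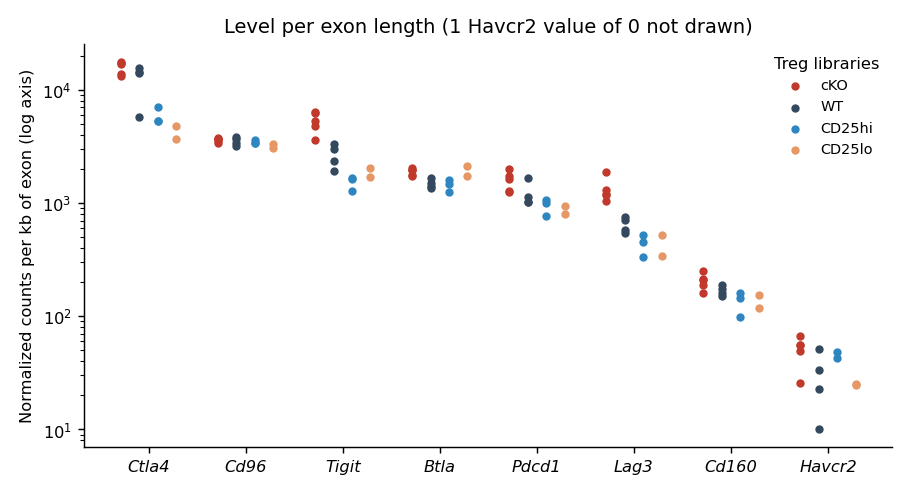
Normalized counts per kb of exon (log axis) of the 8 coinhibitory receptor genes, 1 point per library, coloured by group. Ctla4 was highest in WT Tregs at 12455 per kb as a mean and Havcr2 lowest at 29.5 per kb, and the Havcr2 value of 0 in CD25hi replicate 2 cannot be drawn on this axis.

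The first comparison asked how the loss of miR-15/16 in Tregs changed these receptors. Lag3 and Tigit were each 2.0-fold higher in cKO than in WT Tregs, Btla was 1.27-fold higher, and no receptor was lower. Of the 8 receptors, 3 were called higher and 0 lower (limma-trend on log2(normalized count + 1), adjusted p under 0.05), beside 3.52% of all 16241 genes called, 2.04% higher and 1.48% lower. At an unadjusted p under 0.05, 4 were higher and 0 lower. The share of all genes at that threshold was not counted, here or for the later unadjusted counts, so they have no background to be read against. edgeR with either scaling and DESeq2 called the same 3 genes. The median log2 fold change was 0.40 over the 8 receptors and 0.05 over all genes tested. The receptors were chosen with earlier results of these data known, so setting them beside all genes describes them and is no test. The same 3 receptors were those whose cKO libraries all lay above the WT libraries, which 4.92% of all genes did, and no receptor had all cKO libraries below WT, which 3.62% of all genes had. As these are bulk libraries, more cells with a receptor's mRNA and more mRNA per cell cannot be told apart.

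**Figure D2:**
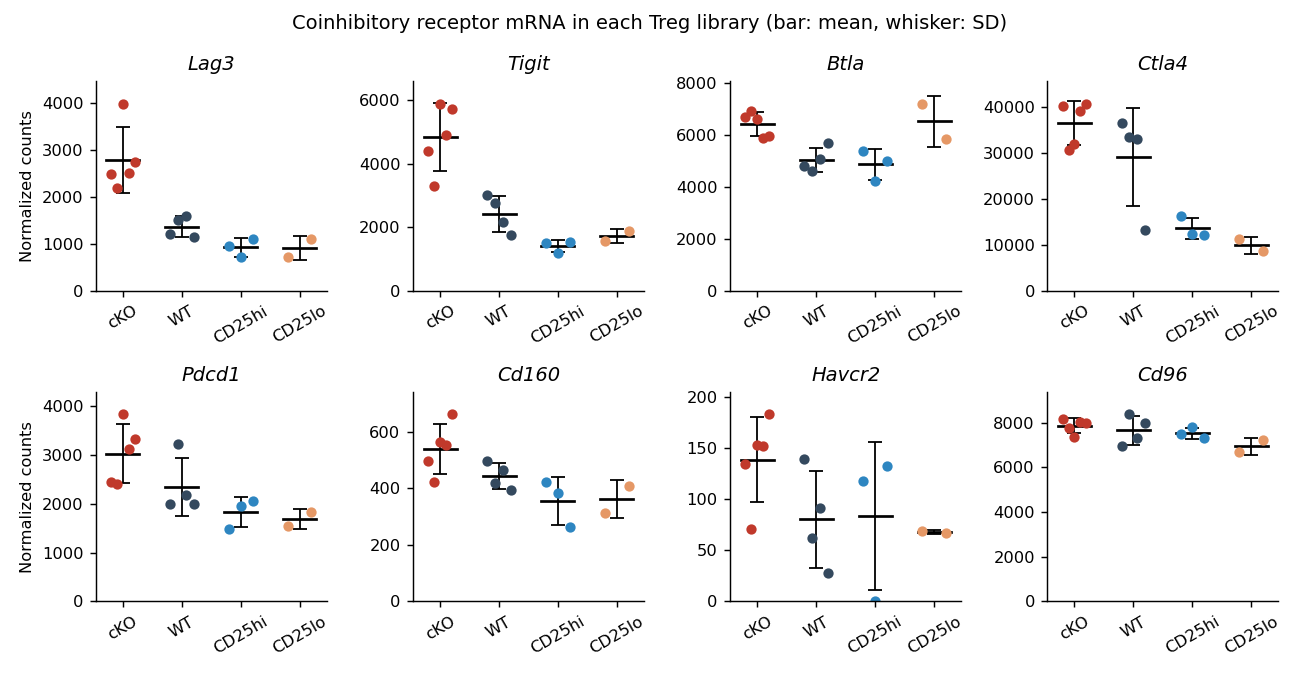
Normalized counts of each receptor gene in the 14 libraries (points), with the group mean (bar) and SD (whisker), each panel on its own axis from 0. For Lag3, Tigit and Btla the 5 cKO libraries lie above the 4 WT libraries, whereas for Cd96 the groups lie close together.

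Lag3, whose product binds MHC class II and restrains T cell receptor signaling, had 2496.5, 2182, 3988, 2507.5 and 2738 normalized counts in cKO replicates 1 to 5. In WT replicates 1 to 4 it had 1209, 1504, 1596 and 1141. Every cKO library was above every WT library, and cKO replicate 3 was the highest of all 14. The means were 2782 ± 702 (SD, n = 5) and 1362 ± 222 (SD, n = 4), a log2 fold change of 1.01 (95% interval 0.65 to 1.38, adjusted p = 0.0027 from limma). The CD25-sorted WT Tregs had less: 959.8, 709 and 1097 in CD25hi replicates 1 to 3 and 724 and 1094 in CD25lo replicates 1 and 2. The CD25hi and CD25lo values overlapped, and all 5 lay below the lowest WT value.

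Tigit, which binds CD155 on antigen-presenting cells and marks Tregs of high suppressive activity, followed the same order in cKO and WT. Its values were 4390.5, 3303, 5897, 4897 and 5737 in cKO replicates 1 to 5 and 3022, 2749.7, 2160.2 and 1762.5 in WT replicates 1 to 4. The groups did not overlap, and the lowest cKO library, replicate 2, stood close above WT replicate 1. The means were 4845 ± 1059 (SD, n = 5) and 2424 ± 569 (SD, n = 4), a log2 fold change of 1.0 (95% interval 0.65 to 1.35, adjusted p = 0.0020 from limma). In the sorted bins Tigit had 1501, 1181.5 and 1523 normalized counts in CD25hi and 1561 and 1880.3 in CD25lo Tregs, so that both CD25lo libraries lay above the CD25hi libraries but CD25lo replicate 2 reached into the range of bulk WT.

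Btla, the receptor for HVEM, rose by a smaller step. It had 6685.5, 6901, 6602, 5881 and 5967 normalized counts in cKO replicates 1 to 5 and 4789, 4595, 5081 and 5673 in WT replicates 1 to 4. The lowest cKO library was close above the highest WT library, and the spread within each group was narrow. The means were 6407 ± 455 (SD, n = 5) and 5034 ± 470 (SD, n = 4), a log2 fold change of 0.35 (95% interval 0.17 to 0.53, adjusted p = 0.0319 from limma). The call was not kept without cKO replicate 1, 2 or 3 or without WT replicate 1, 2 or 3 (adjusted p = 0.0641 to 0.0965 from limma, log2 fold changes of 0.31 to 0.36), nor with no filter on low values (adjusted p = 0.0602). B cells also make Btla, and the summed level of 10 B cell markers was 994 to 1320 normalized counts in cKO and 536 to 969 in WT libraries, without overlap, with Cd79b as the marker of the smallest adjusted p (623 ± 135 in cKO and 280 ± 135 in WT, n = 5 and 4, adjusted p = 0.0519 from limma). The part of these transcripts in the Btla result was not tested.

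The sex of the mice moved with genotype, and the 3 calls were not kept with sex as a term in the fit, which rests on WT replicate 3 as the only female WT library. The log2 fold changes were then 0.77 for Lag3 (SE 0.28, adjusted p = 0.565), 1.13 for Tigit (SE 0.28, adjusted p = 0.166) and 0.33 for Btla (SE 0.15, adjusted p = 0.726, all from limma), and over all genes 22 were called in place of 572. Among the female libraries alone, all 5 cKO libraries were above WT replicate 3 for 5 receptors, Lag3 (1596), Tigit (2160.2), Btla (5081), Pdcd1 (2172) and Cd96 (7319), an arrangement that 21% of all genes show. With a single female WT library, its own deviation and the genotype cannot be told apart there.

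Ctla4, the receptor that strips CD80 and CD86 from antigen-presenting cells and on which Treg suppression depends, was not called between cKO and WT. It had 40076, 30656, 31825, 38976 and 40696 normalized counts in cKO replicates 1 to 5 and 36409.8, 33442, 32969 and 13255.5 in WT replicates 1 to 4. The ranges of cKO and WT replicates 1 to 3 overlapped, and WT replicate 4 lay far below them, at the level of the CD25hi libraries (16236, 12226 and 12223). The means were 36446 ± 4809 (SD, n = 5) and 29019 ± 10619 (SD, n = 4), a log2 fold change of 0.42 (95% interval -0.03 to 0.87, adjusted p = 0.344 from limma). Without WT replicate 4 the log2 fold change was 0.08 (SE 0.11, adjusted p = 0.795). This library also had the lowest immediate early level of the bulk libraries, and with that level as a term in the fit Ctla4 was called, at a log2 fold change of 0.57 (SE 0.12, adjusted p = 0.0087 from limma). Of the 22 genes behind that level, 9 were lower and 1 higher in cKO at an unadjusted p under 0.05 from limma, so the term moved in part with genotype.

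**Figure D3:**
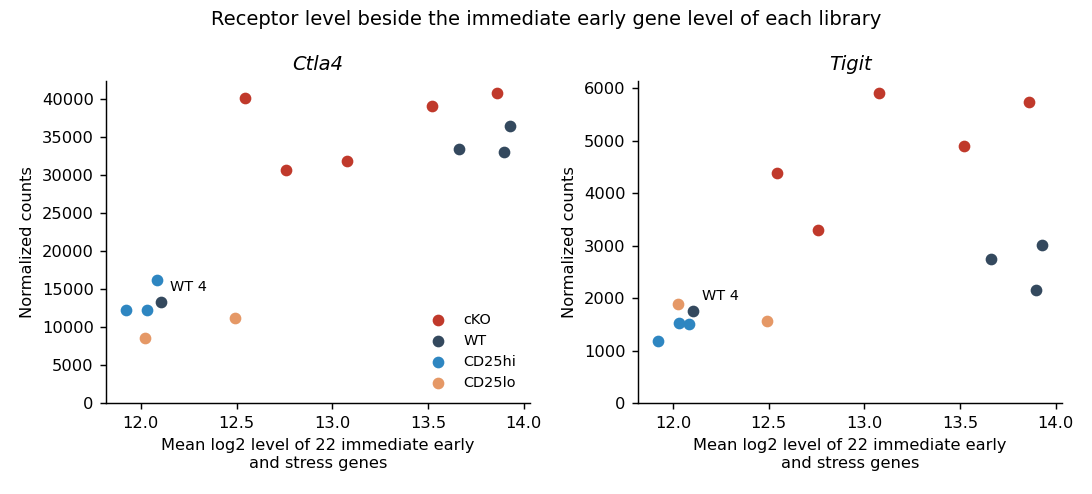
Normalized counts of Ctla4 (left) and Tigit (right) in each of the 14 libraries against the average log2 level, in that library, of 22 genes of the immediate early and stress response, coloured by group. WT replicate 4 (12.10) sits with the CD25-sorted libraries in both panels, while the 5 cKO libraries are above it.

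Pdcd1, which encodes PD-1, had 2439, 2400.4, 3828, 3122 and 3321 normalized counts in cKO replicates 1 to 5 and 1989, 3218, 2172 and 1989 in WT replicates 1 to 4. WT replicate 2 lay within the cKO range and the other 3 WT libraries lay below it. The means were 3022 ± 607 (SD, n = 5) and 2342 ± 591 (SD, n = 4), a log2 fold change of 0.37 (95% interval 0.05 to 0.70, adjusted p = 0.234 from limma), and without WT replicate 2 it was 0.54 (adjusted p = 0.0536). Pdcd1 was thus the fourth receptor below an unadjusted p of 0.05 (0.0278), and it did not pass over all genes.

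The remaining receptors were not called. Cd160, a receptor for HVEM that is better known on NK and intraepithelial T cells, had 498, 422, 565.5, 553 and 662 normalized counts in cKO and 496, 420.4, 464 and 396 in WT Tregs, and the groups overlapped (log2 fold change 0.27, 95% interval -0.13 to 0.68). Exons of Cd160 overlap those of Pdzk1 on the other strand, a gene at a mean of 7.25 normalized counts here. Havcr2, the gene of TIM-3, was scarce, with 134.3, 70.7, 152.8, 152.0 and 183.1 in cKO and 139.5, 62.2, 91.5 and 27.7 in WT Tregs, and its interval was wide (log2 fold change 0.94, 95% interval -1.26 to 3.13). Myeloid cells also make Havcr2, and the summed level of 13 myeloid and dendritic cell markers was 2795 to 6930 normalized counts in cKO and 2662 to 8350 in WT libraries.

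Cd96 differed least among the receptors. It had 8178, 7769, 7336, 8042 and 7990.1 normalized counts in cKO and 6934, 8376, 7319 and 7999.7 in WT Tregs, and the cKO values lay inside the WT range. The means were 7863 ± 329 (SD, n = 5) and 7657 ± 651 (SD, n = 4). The log2 fold change was 0.04 (95% interval -0.09 to 0.18, adjusted p = 0.817 from limma), an interval that leaves out the rise of Tigit, with which Cd96 shares the ligand CD155.

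The second comparison asked whether the receptors differ between CD25lo and CD25hi WT Tregs. None of the 8 was called by limma, beside 1.62% of all genes (263 of 16241), 0.61% higher and 1.01% lower. At an unadjusted p under 0.05, 1 receptor was higher, Btla, and 0 were lower. edgeR called none, and DESeq2 called Btla (adjusted p = 0.0283). The median log2 fold change over the 8 receptors was 0.01 and over all genes 0.00. In contrast, 9 of 11 Treg markers were called lower in CD25lo Tregs, among them Il2ra, by whose product CD25 these bins were sorted. Both CD25lo libraries lay above all CD25hi libraries for Btla and Tigit and below them for Ctla4 and Cd96, arrangements that 12.9% and 11.6% of all genes show with so few libraries.

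Btla had 5392, 4223 and 5002 normalized counts in CD25hi replicates 1 to 3 and 7204 and 5821 in CD25lo replicates 1 and 2. The groups did not overlap, and CD25lo Tregs had the highest group mean of the 4 groups, 6513 ± 978 (SD, n = 2), beside 4872 ± 595 (SD, n = 3) in CD25hi Tregs. The log2 fold change was 0.42 (95% interval 0.17 to 0.67, adjusted p = 0.0891 from limma). For Ctla4, the counts of 11204 and 8536 in CD25lo Tregs lay below the CD25hi values, a log2 fold change of -0.46 (95% interval -1.07 to 0.15, adjusted p = 0.522). Tigit differed by 0.30 on the log2 scale (95% interval -0.17 to 0.77).

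Lag3 had nearly the same mean in CD25hi (922 ± 197, n = 3) and CD25lo Tregs (909 ± 262, n = 2), with a log2 fold change of -0.03 (95% interval -0.52 to 0.47). Pdcd1 had 1479.5, 1941 and 2058 normalized counts in CD25hi and 1535 and 1822 in CD25lo Tregs, within the CD25hi range (log2 fold change -0.11, 95% interval -0.56 to 0.34). Cd96 had 7469, 7800.3 and 7321 in CD25hi and 6682 and 7213 in CD25lo Tregs (log2 fold change -0.12, 95% interval -0.30 to 0.07). Cd160 had 422, 382 and 262 in CD25hi and 314 and 409.8 in CD25lo Tregs, and the groups overlapped (log2 fold change 0.04, 95% interval -0.51 to 0.59). Havcr2 was listed at 0 in CD25hi replicate 2, with 117.3 and 132.4 in the other CD25hi libraries and 69.1 and 66.6 in CD25lo, so that the sign of its fold change rested on that library.

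**Figure D4:**
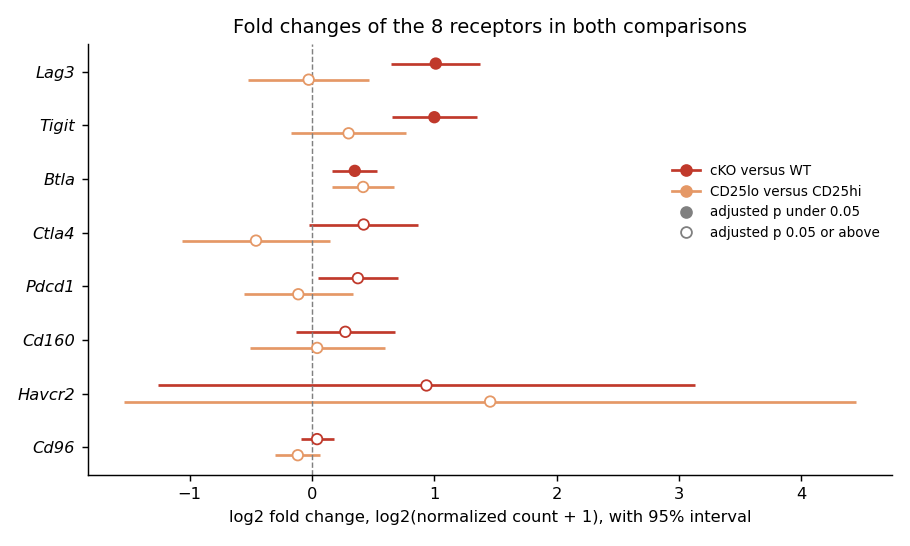
Log2 fold changes of the 8 receptor genes (points) with 95% intervals (lines) for cKO versus WT and for CD25lo versus CD25hi Tregs, with filled points for an adjusted p under 0.05. Lag3, Tigit and Btla are filled for cKO versus WT, no gene is filled for CD25lo versus CD25hi, and the intervals of Havcr2 span both directions.

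Since the comparisons share no library, their difference was tested directly, as the log2 fold change of cKO versus WT less that of CD25lo versus CD25hi. None of the 8 receptors passed over all genes by limma, beside 1.03% of all genes called. At an unadjusted p under 0.05 there were 3, a count without a share over all genes beside it. edgeR called none, and DESeq2 called Lag3 (adjusted p = 0.0271). The difference was 1.04 for Lag3 (95% interval 0.43 to 1.65, adjusted p = 0.0969), 0.88 for Ctla4 (0.13 to 1.64, adjusted p = 0.277) and 0.70 for Tigit (0.12 to 1.29, adjusted p = 0.260, all from limma). For Btla, with log2 fold changes of 0.35 and 0.42 in the comparisons, it was -0.07 (95% interval -0.38 to 0.24). With the immediate early level as a term, the difference passed for Ctla4 (1.17, adjusted p = 0.0053), Lag3 (1.10, adjusted p = 0.0476) and Tigit (0.86, adjusted p = 0.0485, all from limma). The share of all genes called for the difference was not counted for DESeq2 or with this term. As described for Ctla4, the term moved in part with genotype, and WT replicate 4 had the lowest level of the bulk libraries.

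Ordered by group mean, Lag3, Tigit, Ctla4, Pdcd1, Cd160 and Cd96 were highest in cKO and second in WT Tregs. For Ctla4, Pdcd1, Cd160 and Cd96 the ranges of cKO and WT overlapped, so this order is not set by their libraries. Only for Lag3 did the WT libraries also lie apart from the next group, CD25hi. The sorted libraries had the lower means for most receptors although CD25hi and CD25lo cells are parts of the WT population, and their immediate early levels were low as well, so differences between bulk and sorted libraries cannot be told apart from the sort.

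Of 5 genes listed as activating counterparts, a list broader than receptors with a shared ligand, 2 were called higher and 0 lower in cKO Tregs. Cd28, which competes with CTLA-4 for its ligands, had 17753 ± 1857 normalized counts in cKO (SD, n = 5) and 13579 ± 1755 in WT (SD, n = 4), a log2 fold change of 0.39 (adjusted p = 0.0280). Icos, a costimulatory receptor of the same family and of effector Tregs, had 10203 ± 1458 and 7076 ± 1137 (log2 fold change 0.53, adjusted p = 0.0320, both from limma). Cd28, Ctla4 and Icos lie side by side on chromosome 1, with gaps of 114 kb between Cd28 and Ctla4 and 62.1 kb between Ctla4 and Icos. Ctla4 in the middle was the one of the 3 without a call, at a log2 fold change of 0.42 that was 0.08 without WT replicate 4. Cd4, whose product binds MHC class II as LAG-3 does and whose gene lies 16.1 kb from Lag3 on chromosome 6, had a log2 fold change of 0.02 (SE 0.06, adjusted p = 0.918), and Tnfsf14, the activating ligand of HVEM, of 0.31 (SE 0.19, adjusted p = 0.448). On chromosome 16, Tigit, Btla and Cd96 lie within a few megabases, and the first and second of them were called while Cd96 was not.

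Calls among the ligands in Tregs themselves differed between tools. Of 15 ligand genes tested in cKO against WT Tregs, limma and edgeR called none. At an unadjusted p under 0.05 from limma, 2 were higher and 2 lower. DESeq2 called 2, H2-Ab1 (lower, adjusted p = 0.0038) and Pdcd1lg2 (higher, adjusted p = 0.0416). Pdcd1lg2 (PD-L2) had 715.5 ± 127 normalized counts in cKO and 458 ± 109 in WT Tregs (log2 fold change 0.65, adjusted p = 0.0870 from limma). Cd86 had 1289 ± 122 and 1013 ± 178 (log2 fold change 0.36, adjusted p = 0.223 from limma). The MHC class II genes H2-Ab1 (65.1 ± 50.7 and 379 ± 237, adjusted p = 0.155) and H2-Aa (51.7 ± 48.5 and 295 ± 246, adjusted p = 0.302, both from limma) were low and varied with the libraries. The myeloid markers varied as well, among them Csf1r at 619 ± 854 and 1904 ± 1135. In CD25lo against CD25hi Tregs 0 of 15 ligands were called by limma or edgeR. At an unadjusted p under 0.05 from limma there were 3, all lower. DESeq2 called 2 there, Cd86 (adjusted p = 0.0130) and H2-Aa (adjusted p = 0.0139), both lower. Cd86, which T cells can also take up or make, had 729 ± 88.4 normalized counts in CD25lo and 1282 ± 333 in CD25hi Tregs (log2 fold change -0.79, adjusted p = 0.0541 from limma).

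Of 16 genes that carry the signal of these receptors, 2 were called higher and 0 lower in cKO Tregs by limma and edgeR. DESeq2 called 5, adding Inpp5d, Lck and Ptpn6. Ppp2r1a, the scaffold subunit of the phosphatase PP2A that binds the tail of CTLA-4, rose from 7129 ± 912 to 10038 ± 534 normalized counts (log2 fold change 0.50, SE 0.08, adjusted p = 0.0012). Ptpn22, a phosphatase that dampens T cell receptor signaling, rose from 8006 ± 554 to 11048 ± 456 (log2 fold change 0.47, SE 0.06, adjusted p = 0.00037, both from limma). Ptpn6 (SHP-1), a phosphatase that PD-1 and BTLA can recruit, differed by -0.26 (SE 0.07, adjusted p = 0.0567 from limma and 0.0096 from DESeq2), and Inpp5d (SHIP-1), an inositol phosphatase downstream of TIGIT, by 0.20 (SE 0.06, adjusted p = 0.0747 from limma and 0.0158 from DESeq2). Ptpn11 (SHP-2), the other phosphatase of PD-1, differed by 0.07 (SE 0.07, adjusted p = 0.707 from limma). None of the 16 was called between CD25lo and CD25hi Tregs by limma, edgeR or DESeq2. At an unadjusted p under 0.05 from limma, 0 differed there, beside 4 higher and 2 lower between cKO and WT.

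Of 13 genes of receptor trafficking and turnover none was called in either comparison by limma, edgeR or DESeq2, with 2 and 3 at an unadjusted p under 0.05. Def6, which takes part in the recycling of CTLA-4, differed by -0.21 in cKO Tregs (SE 0.07, adjusted p = 0.151), Cmtm6, which stabilizes PD-L1, by 0.14 (SE 0.07, adjusted p = 0.299), Adam17, which sheds LAG-3, by -0.11 (SE 0.07, adjusted p = 0.498), and Rab8a by -0.02 (SE 0.08, adjusted p = 0.936).

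Of 18 transcription factors, limma and edgeR called Bcl6 alone in cKO Tregs, and DESeq2 called 4 (Bcl6, Eomes, Maf and Nfatc1). At an unadjusted p under 0.05 from limma, 5 were higher and 3 lower in cKO than in WT Tregs, and 8 higher and 2 lower in CD25lo than in CD25hi Tregs. Bcl6, the repressor that directs follicular T cells, rose from 1458 ± 100.8 to 2129 ± 142 normalized counts (log2 fold change 0.55, SE 0.09, adjusted p = 0.0029 from limma). In CD25lo Tregs, Tcf7 (TCF1), a factor of resting T cells, was higher (49785 ± 1230, n = 2, against 32301 ± 2495, n = 3, adjusted p = 0.0014), and Foxp3 (15422 ± 1239 against 22851 ± 1350, adjusted p = 0.0016) and Nr4a3 (1903 ± 65.4 against 3111 ± 372, adjusted p = 0.0435) were lower. edgeR kept the calls of Tcf7 and Foxp3 but not that of Nr4a3, and DESeq2 kept all 3 and added Bcl6. Foxp3 did not differ by the test between cKO and WT (log2 fold change -0.07, SE 0.06, adjusted p = 0.628).

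Among 11 other inhibitory receptors, 1 was called higher and 1 lower in cKO Tregs. Cd101, an inhibitory receptor found on Tregs, rose from 1398 ± 99.7 to 1959 ± 208 normalized counts (log2 fold change 0.48, adjusted p = 0.0110), and Pecam1 (CD31), which signals through inhibitory motifs, fell by 0.33 on the log2 scale (7927 ± 344 to 6324 ± 439, adjusted p = 0.0116). Entpd1 (CD39), an ectoenzyme that degrades ATP, was lower in CD25lo than in CD25hi Tregs (1005 ± 165 against 1602 ± 259, adjusted p = 0.0408, a call not kept by edgeR with the deposited size factors) and differed by 0.21 on the log2 scale between cKO and WT (SE 0.12, adjusted p = 0.412). Lilrb4a differed by 0.94 in cKO Tregs (SE 0.34, adjusted p = 0.156, all from limma). With sex as a term, no gene of these 6 lists was called between cKO and WT.

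**Figure D5:**
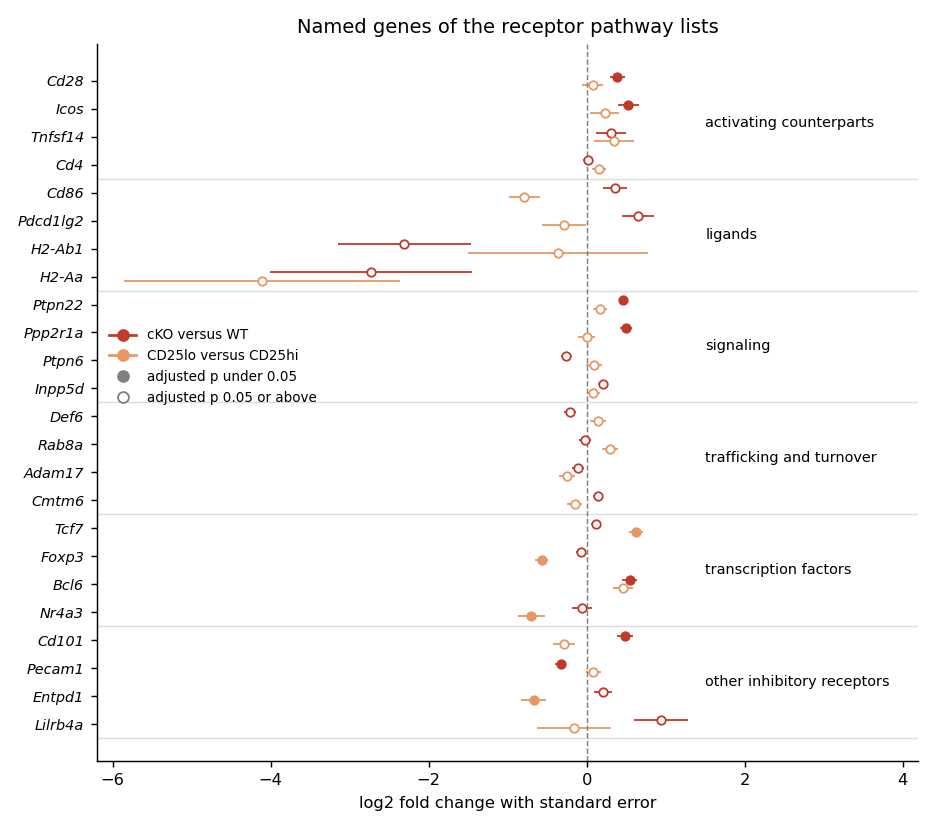
Log2 fold changes with standard errors of up to 4 named genes from each of 6 lists of ligands, counterparts and regulators of the receptors, for cKO versus WT and CD25lo versus CD25hi Tregs, with filled points for an adjusted p under 0.05. Cd28, Icos, Ptpn22, Ppp2r1a, Bcl6 and Cd101 are filled above 0 for cKO versus WT, and the MHC class II genes H2-Ab1 and H2-Aa have wide errors and open points.

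Across the 14 libraries, the genes with the most similar pattern were found by Pearson's r on log2(normalized count + 1) among genes with a mean of at least 1000 normalized counts. The points share genotype, sort, sex and immediate early level, so r describes these libraries and carries no test. Lag3 was closest to Itgb8 (r = 0.95), Tigit (0.94) and Crlf2 (0.94), and Tigit to Icos (0.97), Gata3 (0.97) and AW112010 (0.97). Ctla4 was closest to Tnfaip3 (0.97), Slc25a3 (0.97) and Trib1 (0.97), and Pdcd1 to Itgal (0.93), Cybb (0.93), which is also among the myeloid markers, and Batf (0.91). Btla was closest to Nemp2 (0.95), Madd (0.93) and Slc12a7 (0.92). Cd160 was closest to Cmip (0.88), Cd96 to Gatsl2 (0.88), Ints5 (0.82) and Man1a (0.81), and Havcr2 to Tbc1d10a, Mospd3 and Bckdk (0.89 each).

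The genes are placed, on GRCm38 as the table gives them, at chr6:124904361-124911705 for Lag3 (minus strand, ENSMUSG00000030124), chr16:43648861-43664184 for Tigit (minus, ENSMUSG00000071552), chr16:45224315-45252895 for Btla (plus, ENSMUSG00000052013), chr1:60887000-60915832 for Ctla4 (plus, ENSMUSG00000026011), chr1:94038305-94052553 for Pdcd1 (minus, ENSMUSG00000026285), chr3:96798763-96829351 for Cd160 (minus, ENSMUSG00000038304), chr11:46454935-46481255 for Havcr2 (plus, ENSMUSG00000020399) and chr16:46035657-46120251 for Cd96 (minus, ENSMUSG00000022657).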

How the data were processed

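Tregs were sorted from 14 samples, and single-end reads were aligned by the authors to GRCm38 with STAR 2.7.2b per the submitters' processing notes. The read counter and its strand setting are not given in the sources used here. The authors deposited a signal per gene and library, the reads scaled by size factors from DESeq2 1.24.0 (normalized counts). They also deposited variance-stabilized log2 values, GC content in percent, and for each comparison log2 fold changes, fold changes as a ratio, p-values and FDR, none of which were used. Groups were taken from the sample labels.

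Since these values are not raw counts, limma-trend (R 4.3.3, limma 3.58.1) was fitted to log2(normalized count + 1) of all 14 libraries with 4 group means, keeping genes that reached 10 normalized counts in 2 or more libraries. A gene was called when its p, adjusted by Benjamini-Hochberg over all genes tested, was under 0.05, and fold changes are on that log2 scale. For low genes this scale can understate a change or depart from the count models in sign. Havcr2 between CD25lo and CD25hi was 1.46 on it and -0.30 with DESeq2. Whole reads were recovered from the size-factor steps (100.0% of values within 0.055 normalized counts) for edgeR 4.0.16 and DESeq2 1.42.0. Other alternatives were filters, a pseudocount of 0.5 or 5, a fit to the compared groups alone, a replicate block, sex or immediate early level as a term, each library left out, and, added after seeing the data, only the bulk libraries with high immediate early levels. The fit was tested on simulated data. Exon lengths and 3′ UTRs were taken from GENCODE vM21, whose lengths can differ from those behind the counts, and tables and plots were made with python 3.11.15. The text names all 8 receptors, up to 4 genes per other list with the smallest adjusted p, and the 3 genes most like each receptor (some items under these rules are not reported here), and the genes of a count or a locus besides. The members and lists were chosen with earlier results of these data known.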

Additional observations from a re-analysis of the deposited data

Results flagged for a closer look

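Among 18 groups of 4 or 5 libraries examined for a library far from the others (the 8 receptors and the immediate early level, in cKO and in WT), 3 held such a library, all in WT. Chance gives this in about 1 in 20 groups. Ctla4 was lowest in WT replicate 4, at 13255.5 normalized counts, while WT replicates 1 to 3 held 32969 to 36409.8. The mean log2 level of the immediate early and stress genes was lowest in the same library, at 12.10 with 13.66 to 13.93 in the others. Pdcd1 was highest in WT replicate 2, at 3218 normalized counts, while WT replicates 1, 3 and 4 held 1989 to 2172.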

How the results depend on the processing

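Under 26 alternatives, Lag3 kept its call in cKO Tregs in 24, Tigit in 25 and Btla in 16, with log2 fold changes of 0.77 to 1.09, 0.86 to 1.13 and 0.30 to 0.41. Of the 3 receptors called, 0 remained with sex as a term and 1, Tigit, among the 2 cKO and 3 WT bulk libraries with high immediate early levels (Lag3 0.88, adjusted p = 0.0709 from limma). The count of 572 genes between cKO and WT became 893 with DESeq2, 22 with sex as a term, 878 with the immediate early level as a term and 111 among those bulk libraries. It was 349 to 666 with a library left out, the lowest without cKO replicate 1 and next without cKO replicate 3 (356). Receptors called there were 2 to 3. Between CD25lo and CD25hi, the count of 263 became 667 with DESeq2, 160 with only the groups compared and 446 with the immediate early level. It was 91 to 377 with a library left out, 91 without CD25lo replicate 2, which leaves CD25lo replicate 1 alone and assumes that it varies like the other groups, and 142 without CD25hi replicate 3. Receptors called were 1 with DESeq2 and 1 with the immediate early level (Btla in both) and 0 with any library left out. For the difference of the comparisons they were 1 with DESeq2, 3 with the immediate early level and 0 with any library left out. The share of all genes called for the difference was not counted under these alternatives. Replicate numbers gave no sign of pairing, as same-numbered deviations from the group means correlated at -0.31 to -0.11 for cKO with WT and -0.07 to 0.04 for CD25hi with CD25lo. With 2 CD25lo libraries, whose deviations mirror each other, this check cannot exclude pairing of the sorted bins, and pairings under other numbers were not examined. With the replicate block the counts were 290 and 105, Lag3 and Tigit were called in cKO Tregs and Btla was not (adjusted p = 0.0609), and Lag3 turned to 0.13 between CD25lo and CD25hi. Other signs turned only among values that were not called. Havcr2 between CD25lo and CD25hi was -0.31 and -0.29 with edgeR under TMM and the deposited size factors, -0.30 with DESeq2 and -0.87 to 2.66 with a library left out, and its difference between comparisons was 1.10, 1.08 and 1.08, 0.15 with a pseudocount of 5, and -1.73 to 1.80. With a library left out, Cd96 in cKO Tregs was -0.0052 to 0.086, and between CD25lo and CD25hi Lag3 was -0.33 to 0.27, Pdcd1 -0.26 to 0.011 and Cd160 -0.16 to 0.23, with Cd160 at -0.0027 with the immediate early level. The difference for Btla was -0.22 to 0.085. The cause of these changes was not tested. The sorted groups held 2 and 3 libraries, and Havcr2 had few reads, so its intervals were wide.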

Other observations

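In cKO against WT Tregs, 2 of 11 Treg markers were called higher (Nrp1 and Ikzf2) and 3 lower, among them Il2ra, which encodes CD25 (15512 ± 1685, n = 5, against 26037 ± 2160 normalized counts, n = 4), and Gpr83 (2798 ± 550 against 4966 ± 344). edgeR called the same 5 and DESeq2 8. In CD25lo against CD25hi Tregs, which were sorted by the product of Il2ra, 9 of 11 were called lower and 0 higher. With sex as a term, 1 of the 11 was called between cKO and WT.

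Of 6 genes of conventional effector T cells, 0 were called between cKO and WT by limma, edgeR or DESeq2, and 0 had an unadjusted p under 0.05. In CD25lo against CD25hi Tregs, 2 were called higher: Cd40lg (2030 ± 85.8, n = 2, against 1106 ± 119, n = 3, adjusted p = 0.0045 from limma) and Il4 (30.8 ± 9.26 against 0.33 ± 0.58, adjusted p = 0.0252).

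Of the markers of other cells that passed the filter on low values, 0 of 6 of B cells, 0 of 12 of myeloid and dendritic cells, 0 of 5 of NK cells and 0 of 2 of CD8 T cells were called by limma or edgeR in either comparison. DESeq2 called 1 B cell marker between cKO and WT, and 1 myeloid and 1 NK marker between CD25lo and CD25hi. At an unadjusted p under 0.05 these lists held 2, 3, 0 and 0 genes between cKO and WT and 3, 2, 2 and 0 between CD25lo and CD25hi. The 8 NK markers summed to 843 to 1398 normalized counts in cKO and 784 to 1119 in WT libraries. Of the 22 immediate early and stress genes, Dusp2 alone was called between cKO and WT by limma and edgeR (lower, adjusted p = 0.0450 from limma), and DESeq2 also called Jun (lower). At an unadjusted p under 0.05 from limma, 9 were lower and 1 higher in cKO Tregs, with a median log2 fold change of -0.34 over the list. Between CD25lo and CD25hi, 0 were called by limma, edgeR or DESeq2, with 0 at an unadjusted p under 0.05.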
